A study of Homo sapiens with 12 samples.

Results

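The genes described here are 9 classical target genes of the tumour suppressor p53 that act in growth arrest and apoptosis: CDKN1A, GADD45A, BTG2, MDM2, TP53INP1, SESN1, TP53I3, FAS and ZMAT3. They were taken from an array data set of MDA231 cells (MDA-MB-231, a widely used human line of triple-negative breast cancer). Every probe set whose only annotated gene symbol is one of them was read. This gave 27 probe sets for 8 of the 9 genes, out of 41091 probe sets with 1 symbol that name 19775 genes. No probe set carries BTG2 as its only symbol in the annotation used here, so BTG2 was not analysed. Probe sets annotated with several symbols were not assigned to any gene. All 8 other genes passed the filter on dim signals and are among the 12886 genes tested. There were 12 single-colour arrays in 4 groups of 3. ETX cells carried the scrambled short hairpin RNA and received ETX, which the labels leave unexpanded and which is taken to mean etomoxir, a drug that blocks CPT1 (carnitine palmitoyltransferase 1). shCPT-1 and shCPT-2 cells carried hairpins that the treatment protocol describes as against CPT1 and CPT2 in a pGIPZ lentivirus, and scramble cells carried the scrambled hairpin alone. The CPT enzymes bring fatty acids across the mitochondrial membranes to be oxidised, and the design asks how expression changes when that step is inhibited or knocked down. The dose and duration of ETX for the arrays, the hairpin sequences, and whether a line is 1 clone or a pool are not stated in the labels. They also do not say whether replicate arrays stem from different cultures. Each p-value therefore measures array-to-array spread, which may be technical.

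In cells with DNA damage or other stress, p53 accumulates and switches on genes that halt the cell cycle (CDKN1A, GADD45A, BTG2), restrain p53 itself (MDM2), reinforce it (TP53INP1), adjust metabolism and redox state (SESN1, TP53I3), promote death through a surface receptor (FAS) or bind RNA (ZMAT3). Several of the genes also answer to other inputs: CDKN1A and GADD45A, for example, respond to integrated stress and mitogen signals.

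p53 binds a response element made of a pair of adjacent decamers. RefSeq promoter sequences (GRCh38.p14) were available for 7 of the 9 genes, in 15 windows, and the 250 bases before each transcript start were searched for that element without a spacer. The element reads the same on both strands, so a single search covers both. The 3 genes whose best match had at most 3 mismatches are shown, since their windows come closest to the textbook element, with the matched element in capitals and 5 flanking bases on each side.
MDM2: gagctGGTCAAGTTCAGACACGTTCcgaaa
FAS: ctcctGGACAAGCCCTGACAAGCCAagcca
SESN1: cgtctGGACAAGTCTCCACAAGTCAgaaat
The MDM2 stretch lies at chr12:68808918-68808947 on the plus strand and has 2 mismatches to the element, beginning 94 bases before an internal start of that gene. The FAS stretch lies at chr10:88991304-88991333 on the plus strand and has 2 mismatches, beginning 122 bases before the most downstream of its starts searched. The SESN1 stretch lies at chr6:109009013-109009042 on the minus strand and has 3 mismatches, beginning 49 bases before the most downstream of its starts searched. Of all 35116 promoter windows searched the same way, 0.561% held a match with at most 2 mismatches and 4.36% one with at most 3. These shares are per window, whereas each match shown is the best over several windows of its gene. A gene with several windows reaches such a match more often than a single window does. Other windows of these genes had up to 5 mismatches (MDM2, FAS) or 6 (SESN1) at their best match. The best match of ZMAT3 had 4 mismatches and those of CDKN1A, BTG2 and TP53I3 had 5, a level reached by 22.1% (4) and 64.5% (5) of all windows. A match is a description of these letters, and its absence says nothing about elements outside the windows. The expression values of the 3 genes shown are given below: FAS rose in shCPT-2, SESN1 fell slightly in shCPT-1, and MDM2 passed in no comparison.

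The labels do not name the CPT1 isoform that the shCPT-1 hairpin targets. CPT1A, which encodes the CPT1 of liver, and CPT2 were lower in shCPT-1 and shCPT-2 than in scramble, each in its own line. CPT1A read 8.11, 8.10 and 8.34 log2 intensity in shCPT-1 against 9.64, 9.84 and 9.86 in scramble, and CPT2 read 6.61, 6.22 and 6.39 in shCPT-2 against 7.46, 7.31 and 7.46 in scramble. With ETX, CPT1A read 10.90, 10.80 and 10.97, above scramble. Smaller changes were also called outside the targeted lines. CPT1A was lower in shCPT-2 (-0.23 ± 0.08, limma adjusted p = 0.0318), a call that ended in 9 of 25 alternative settings. CPT2 was higher with ETX (0.27 ± 0.1, limma adjusted p = 0.043), a call that ended in 14 of 25. Array medians lay between 6.23 and 6.27 log2 units. Of 6 markers of this mesenchymal line, VIM, CD44, AXL, CAV1 and MSN exceeded the array median on all 12 arrays and SPARC on 4. CDH1 and PGR, which the line lacks, exceeded it on none, but ESR1, ERBB2, EPCAM, GATA3 and KRT8 exceeded it on all 12. Of the leukocyte markers, PTPRC and CD14 exceeded it on no array and CD3E on all 12. Of the endothelial markers, CDH5 and VWF exceeded it on none, KDR on 8 and PECAM1 on 12, and of the fibroblast markers LUM on none, DCN on 2, PDGFRB on 7 and COL1A1 on 12. All arrays are of the MDA231 line, and what these signals come from was not tested. For actin, the control probe sets at the 3′ end minus those at the 5′ end, a measure of RNA integrity or labelling, averaged 1.75 ± 0.06 in ETX, 1.73 ± 0.23 in shCPT-1 and 1.68 ± 0.23 in shCPT-2, against 2.07 ± 0.27 in scramble (SD, n = 3). With it as a covariate, 2 calls of the 8 genes against scramble ended, and both are named below. In RNA from whole cultures, fewer cells of a type and less RNA per cell cannot be told apart.

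The 8 genes did not move as a block in any treatment. With ETX, GADD45A, ZMAT3 and CDKN1A rose and none fell, so 3 of 8 were called (limma, Benjamini-Hochberg adjusted p under 0.05), where 41.3% of all tested genes were called, 21.9% as higher. In shCPT-1, ZMAT3 and CDKN1A rose and SESN1 fell, again 3 of 8, with 41.1% of all genes called. In shCPT-2, GADD45A, ZMAT3 and FAS rose and TP53INP1 fell, 4 of 8, with 46.1% of all genes called. The groups did not overlap for 3 genes with ETX, 4 in shCPT-1 and 5 in shCPT-2, where they did not for 49.5%, 51.1% and 52.4% of all genes. Those shares are near the background (3 of 8 and 4 of 8), so the counts as such set the 8 genes apart in no treatment. The median log2 change of the 8 genes was 0.23 with ETX, 0.07 in shCPT-1 and 0.03 in shCPT-2, beside -0.01, 0.01 and 0.01 over all tested genes. Over the 4 groups together, the moderated F test called 6 of the 8, with 69.8% of all genes called, and MDM2 (adjusted p = 0.129) and TP53I3 (adjusted p = 0.235) were not among them. The 3 comparisons share the scramble arrays, so their values are given side by side and their likeness is not read as a result.

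**Figure D1:**
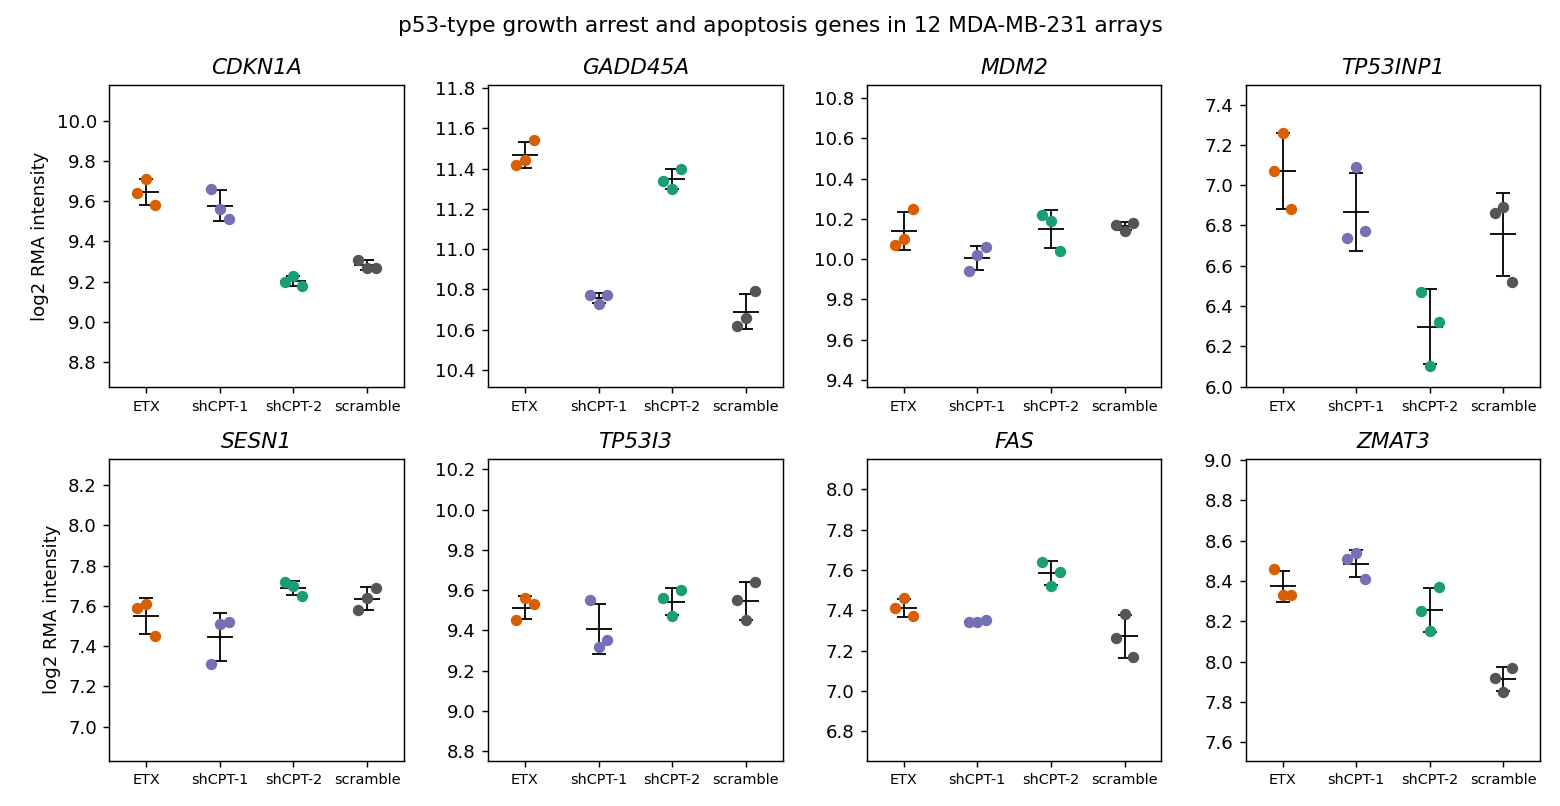
Log2 RMA intensity of the 8 genes on each array, 3 points a group, with the mean and SD as bars; each panel spans 1.5 log2 units around its gene's mean, so levels are to be read within a panel. The GADD45A points of ETX and shCPT-2 lie at 11.30 and above while those of shCPT-1 and scramble lie at 10.79 and below. The TP53I3 points of the groups intermingle, and the MDM2 points of shCPT-1 lie below those of scramble and ETX.

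GADD45A encodes a small stress protein that arrests cells at the G2 to M transition and helps activate stress kinases. It showed the largest change of the 8 genes. GADD45A read 11.42, 11.44 and 11.54 with ETX, 10.77, 10.73 and 10.77 in shCPT-1 and 11.34, 11.30 and 11.40 in shCPT-2, against 10.62, 10.66 and 10.79 in scramble. All ETX and shCPT-2 arrays lay above every scramble array, whereas shCPT-1 overlapped scramble. GADD45A rose 1.71-fold with ETX (log2 change 0.78 ± 0.05 SE, limma adjusted p = 1.44e-06) and 1.58-fold in shCPT-2 (0.66 ± 0.05, adjusted p = 1.19e-06). In shCPT-1 the change was 0.07 ± 0.05 (adjusted p = 0.323, 95% interval -0.05 to 0.19). That last value passed with array weights (0.09, adjusted p = 0.0284) and without the 4 arrays that correlated least with their group (0.12, adjusted p = 0.0464). Its relative GADD45B stood at 9.85 ± 0.06 with ETX, 9.80 ± 0.09 in shCPT-1 and 9.91 ± 0.11 in shCPT-2, against 9.83 ± 0.04 in scramble (SD), and passed in no comparison against scramble. GADD45G was under the filter.

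CDKN1A encodes p21, the inhibitor of cyclin-dependent kinases that carries much of the G1 arrest by p53. CDKN1A read 9.64, 9.71 and 9.58 with ETX, 9.66, 9.56 and 9.51 in shCPT-1 and 9.20, 9.23 and 9.18 in shCPT-2, against 9.31, 9.27 and 9.27 in scramble. The ETX and shCPT-1 arrays overlapped each other and lay wholly above scramble, and the shCPT-2 arrays lay just below scramble. CDKN1A rose 1.29-fold with ETX (0.36 ± 0.05, limma adjusted p = 0.000186) and 1.23-fold in shCPT-1 (0.30 ± 0.05, adjusted p = 5e-04). In shCPT-2 its change of -0.08 ± 0.05 did not pass (adjusted p = 0.211, interval -0.19 to 0.03), but it did with array weights (-0.09, adjusted p = 0.0241). Among its relatives, CDKN1B, the p27 inhibitor, rose by 0.21 ± 0.08 with ETX (adjusted p = 0.0482). It stood at -0.08 ± 0.08 in shCPT-1 and -0.15 ± 0.08 in shCPT-2 (adjusted p = 0.428 and 0.149). CDKN1C, the p57 inhibitor, fell by 0.34 ± 0.05 with ETX (adjusted p = 0.000368) and by 0.59 ± 0.05 in shCPT-2 (adjusted p = 1.91e-06), and stood at 0.13 ± 0.05 in shCPT-1 (adjusted p = 0.0583).

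ZMAT3 encodes a zinc finger protein that binds RNA and affects splicing and the stability of mRNAs. It is the gene of the 8 that was called as higher in all 3 treatments. On the probe set that stands for it, ZMAT3 read 8.46, 8.33 and 8.33 with ETX, 8.51, 8.54 and 8.41 in shCPT-1 and 8.25, 8.15 and 8.37 in shCPT-2, against 7.92, 7.85 and 7.97 in scramble. Every treated array lay above every scramble array. ZMAT3 rose 1.37-fold with ETX (0.46 ± 0.06, limma adjusted p = 0.000216), 1.48-fold in shCPT-1 (0.57 ± 0.06, adjusted p = 2.07e-05) and 1.27-fold in shCPT-2 (0.34 ± 0.06, adjusted p = 0.000811). Its 3 other kept probe sets moved less. With each probe set fitted on its own, they changed by 0.28 ± 0.09 (adjusted p = 0.0282), 0.08 ± 0.08 and 0.11 ± 0.13 with ETX. In shCPT-1 they changed by 0.14 ± 0.09, 0.12 ± 0.08 and 0.02 ± 0.13, and in shCPT-2 by 0.18 ± 0.09, 0.06 ± 0.08 and -0.20 ± 0.13, none of which passed. With the mean of its kept probe sets, the ZMAT3 call in shCPT-2 ended (0.10, adjusted p = 0.249). The calls in the knockdowns thus rest on 1 of 4 kept probe sets. Over the 15 kept probe sets of all 8 genes, 5 passed with ETX, 3 in shCPT-1 and 5 in shCPT-2, where 35.8%, 35.1% and 40.6% of all kept probe sets did.

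FAS encodes the CD95 death receptor, whose ligand on other cells starts the caspase cascade through the adaptor FADD and caspase 8. FAS read 7.41, 7.46 and 7.37 with ETX, 7.34, 7.34 and 7.35 in shCPT-1 and 7.64, 7.52 and 7.59 in shCPT-2, against 7.26, 7.38 and 7.17 in scramble. The shCPT-2 arrays lay above all others, and those of ETX and shCPT-1 overlapped scramble. FAS rose 1.24-fold in shCPT-2 (0.32 ± 0.06, limma adjusted p = 0.000585). The changes of 0.15 ± 0.06 with ETX (adjusted p = 0.0534) and 0.08 ± 0.06 in shCPT-1 (adjusted p = 0.304) did not pass. The ETX value passed without scramble 2 (0.20, adjusted p = 0.0172) or shCPT-2 replicate 2 (0.15, adjusted p = 0.0486), with quantile normalization again (0.14, adjusted p = 0.0326), with each array centred on its median (0.16, adjusted p = 0.033) and with the mean of both kept probe sets (0.21, adjusted p = 0.011). The other kept FAS probe set, fitted on its own, rose with ETX (0.27 ± 0.07, adjusted p = 0.0137) and in shCPT-2 (0.35 ± 0.07, adjusted p = 0.00215) and reached 0.19 ± 0.07 in shCPT-1 (adjusted p = 0.0588). Of 3 FAS probe sets under the filter, 2 were higher on every treated array than on every scramble array, by 0.60 and 0.56 with ETX, 0.24 and 0.40 in shCPT-1 and 0.45 and 0.61 in shCPT-2. They lie under the array medians and were not tested.

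Downstream of FAS, 10 of 14 death receptor pathway genes were tested: 1 was called higher and 2 lower with ETX, 1 and 1 in shCPT-1, and 1 and 3 in shCPT-2, at median log2 changes of -0.07, -0.02 and 0.01. Over all tested genes, 21.9% were called higher and 19.4% lower with ETX, 23.1% and 18% in shCPT-1, and 25.6% and 20.5% in shCPT-2. CFLAR, which encodes the FLIP protein that blocks caspase 8, rose by 0.56 ± 0.11 with ETX (limma adjusted p = 0.00159) and by 0.81 ± 0.11 in shCPT-2 (adjusted p = 5.47e-05). The adaptor FADD fell by 0.39 ± 0.06 in shCPT-1 (adjusted p = 0.000251) and by 0.40 ± 0.06 in shCPT-2 (adjusted p = 0.000153). Caspase 6 (CASP6) fell by 0.46 ± 0.06 in shCPT-2 (adjusted p = 3.47e-05) and by 0.20 ± 0.06 with ETX (adjusted p = 0.0158). FAF1, a FAS-associated factor, fell by 0.16 ± 0.04 with ETX (adjusted p = 0.0115) and by 0.11 ± 0.04 in shCPT-2 (adjusted p = 0.0438), and FAIM, an inhibitor of FAS signalling, rose by 0.19 ± 0.05 in shCPT-1 (adjusted p = 0.011). CASP8 changed by 0.01 with ETX, -0.08 in shCPT-1 and 0.06 in shCPT-2 and passed in none. FASLG, the ligand, was under the filter.

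**Figure D2:**
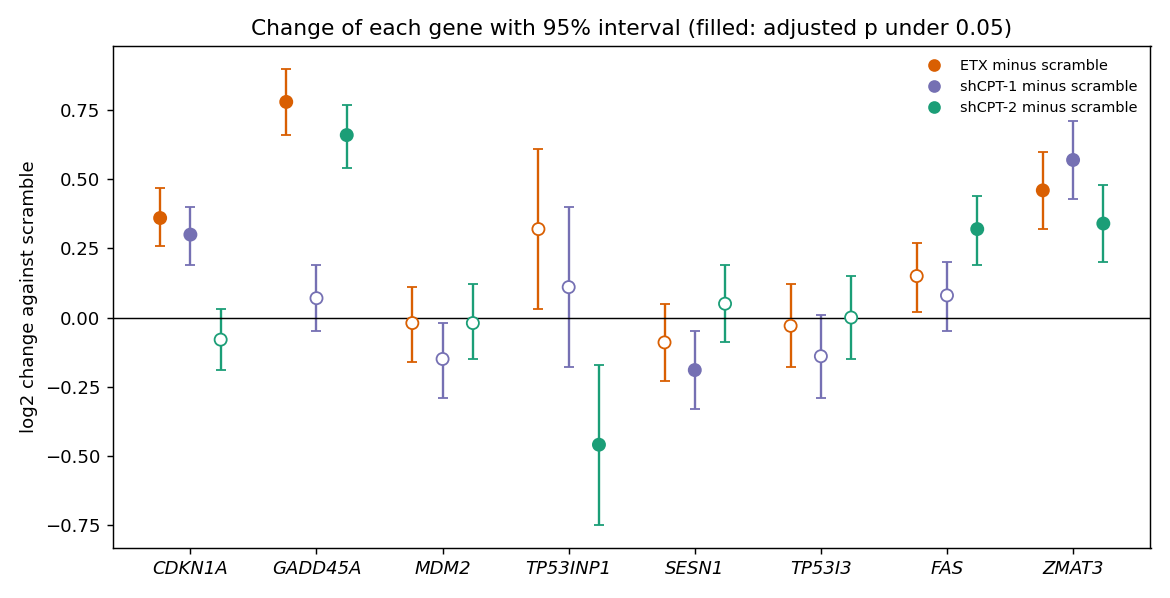
Log2 change of each of the 8 genes against scramble in ETX, shCPT-1 and shCPT-2, with 95% intervals from the limma fit; filled points passed at an adjusted p under 0.05. GADD45A at 0.78 with ETX is the highest point and TP53INP1 at -0.46 in shCPT-2 the lowest, and the MDM2 and TP53I3 points are all open.

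MDM2 encodes the ubiquitin ligase that marks p53 for destruction and is itself a p53 target, which closes a feedback loop. MDM2 read 10.07, 10.10 and 10.25 with ETX, 9.94, 10.02 and 10.06 in shCPT-1 and 10.22, 10.19 and 10.04 in shCPT-2, against 10.17, 10.14 and 10.18 in scramble. The shCPT-1 arrays lay below scramble and the other groups overlapped it. MDM2 changed by -0.02 ± 0.06 with ETX (limma adjusted p = 0.79, interval -0.16 to 0.11), -0.15 ± 0.06 in shCPT-1 (adjusted p = 0.067, interval -0.29 to -0.02) and -0.02 ± 0.06 in shCPT-2 (adjusted p = 0.861, interval -0.15 to 0.12). The shCPT-1 value passed without ETX replicate 3 (adjusted p = 0.0414), with quantile normalization again (0.0322), with trend and robust eBayes (0.0448), with only the groups compared (0.0443) and with array weights (0.0349), at changes of -0.17 to -0.11. MDM2 has 10 probe sets here, with mean levels from 3.52 to 10.11 log2 units, and 6 of them are under the filter. The 4 kept ones, the brightest included, changed by -0.19 to 0.10 in the 3 treatments and none passed on its own. Of the 6 dim MDM2 probe sets, 1 was higher on every ETX array than on every scramble array (by 0.54), at a level under the array medians. The brightest MDM2 probe set has no accession in the annotation, so the transcript it reads cannot be stated. The related p53 inhibitor MDM4 stood at 10.79 ± 0.11 with ETX, 10.91 ± 0.08 in shCPT-1 and 10.87 ± 0.06 in shCPT-2, against 10.88 ± 0.05 in scramble (SD), and passed in none.

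**Figure D3:**
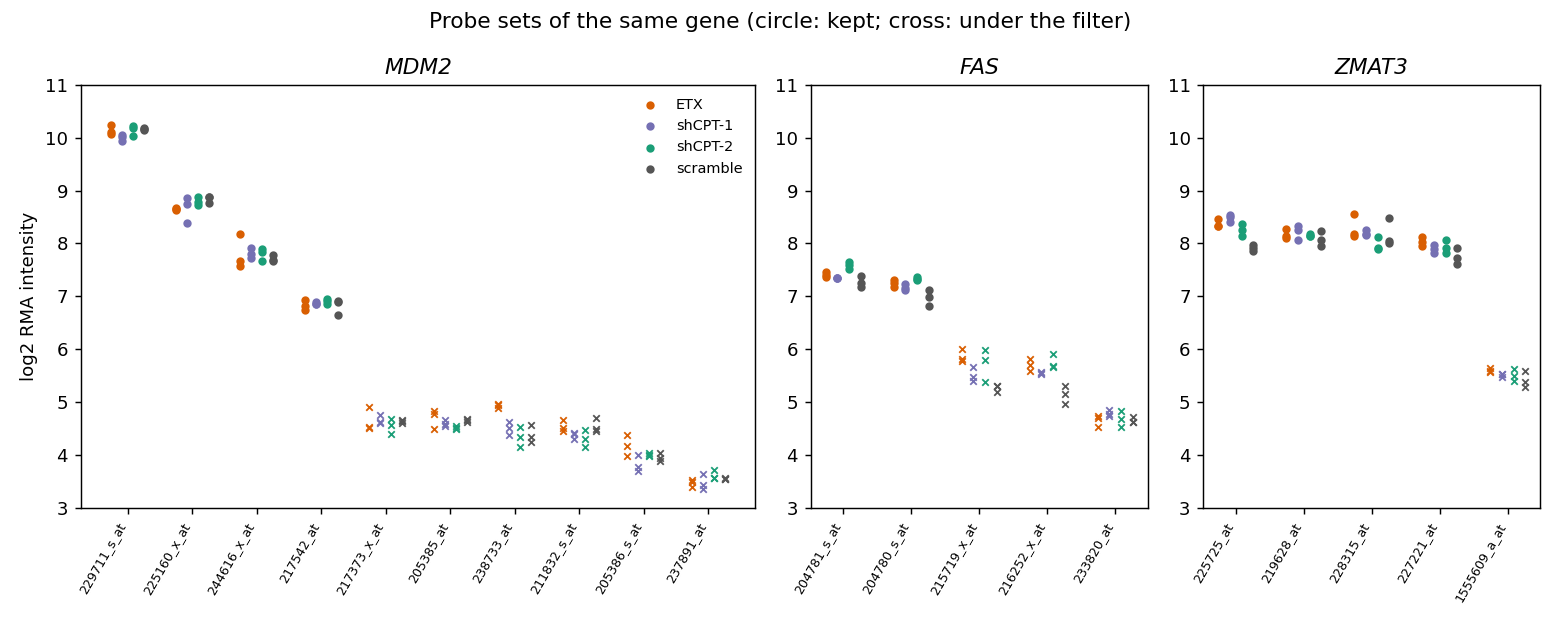
Log2 RMA intensity of every probe set of MDM2 (10), FAS (5) and ZMAT3 (5) on the 12 arrays, ordered from bright to dim; circles are kept probe sets and crosses lie under the filter, and colours mark the groups. For ZMAT3 the leftmost probe set separates all treated arrays from scramble while the next ones do not, and 6 of the 10 MDM2 probe sets are crosses.

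TP53INP1 encodes a nuclear protein that promotes p53 phosphorylation and, in the cytoplasm, autophagy-linked death. TP53INP1 read 7.07, 7.26 and 6.88 with ETX, 6.74, 7.09 and 6.77 in shCPT-1 and 6.47, 6.10 and 6.32 in shCPT-2, against 6.86, 6.89 and 6.52 in scramble. Its arrays varied more within groups than those of the other 7 genes (pooled SD 0.195), and the shCPT-2 arrays lay below all others. TP53INP1 fell 1.37-fold in shCPT-2 (-0.46 ± 0.13, limma adjusted p = 0.0141). Without scramble 1, scramble 2 or shCPT-2 replicate 2 that call ended (-0.40, -0.39 and -0.36, adjusted p = 0.0545, 0.058 and 0.0597), and likewise with the actin control as a covariate (-0.32, adjusted p = 0.149). The change of 0.32 ± 0.13 with ETX did not pass (adjusted p = 0.0766), except without ETX replicate 3 (0.41, adjusted p = 0.038), and that of 0.11 ± 0.13 in shCPT-1 did not either (adjusted p = 0.544). Its shCPT-2 values lie close to the array medians, where a fold is less certain, and its 2 other probe sets were under the filter. The relative TP53INP2, an autophagy factor, rose by 0.25 ± 0.05 with ETX (adjusted p = 0.00222) and by 0.32 ± 0.05 in shCPT-1 (adjusted p = 0.000276).

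SESN1 encodes sestrin 1, which restrains the growth kinase mTORC1 and supports antioxidant defence. SESN1 read 7.59, 7.61 and 7.45 with ETX, 7.31, 7.51 and 7.52 in shCPT-1 and 7.72, 7.70 and 7.65 in shCPT-2, against 7.58, 7.64 and 7.69 in scramble. It fell 1.14-fold in shCPT-1 (-0.19 ± 0.06, limma adjusted p = 0.0289), where the 3 arrays lay below scramble. That call ended without scramble 2 (-0.19, adjusted p = 0.0702), scramble 3 (-0.17, adjusted p = 0.0807) or shCPT-1 replicate 1 (-0.13, adjusted p = 0.121), with the actin covariate (-0.16, adjusted p = 0.131), without a filter (adjusted p = 0.0511), with only the groups compared (adjusted p = 0.0586) and without the 4 arrays that correlated least with their group (-0.10, adjusted p = 0.0988). SESN1 changed by -0.09 ± 0.06 with ETX (adjusted p = 0.306) and 0.05 ± 0.06 in shCPT-2 (adjusted p = 0.538). The other sestrins differed from it in direction or size. SESN2, a sestrin induced by the ATF4 stress factor, rose by 0.84 ± 0.06 with ETX (adjusted p = 2.72e-06), 0.45 ± 0.06 in shCPT-1 (adjusted p = 0.00014) and 0.18 ± 0.06 in shCPT-2 (adjusted p = 0.0332). SESN3, a sestrin under FOXO control, fell by 0.50 ± 0.12 in shCPT-1 (adjusted p = 0.00687) and by 1.40 ± 0.12 in shCPT-2 (adjusted p = 2.29e-06), at 6.28 ± 0.27 (SD), close to the array medians, while its 0.25 ± 0.12 with ETX did not pass (adjusted p = 0.121).

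TP53I3 encodes a quinone oxidoreductase, PIG3, that generates reactive oxygen species in p53-driven death. TP53I3 read 9.45, 9.56 and 9.53 with ETX, 9.55, 9.32 and 9.35 in shCPT-1 and 9.56, 9.47 and 9.60 in shCPT-2, against 9.55, 9.45 and 9.64 in scramble. The groups overlapped throughout. Its changes were -0.03 ± 0.07 with ETX (limma adjusted p = 0.732, interval -0.18 to 0.12), -0.14 ± 0.07 in shCPT-1 (adjusted p = 0.128, interval -0.29 to 0.01) and 0.00 ± 0.07 in shCPT-2 (adjusted p = 0.996, interval -0.15 to 0.15). The shCPT-1 value passed without shCPT-1 replicate 1 (-0.21, adjusted p = 0.0238), with the actin covariate (-0.25, adjusted p = 0.0071), with array weights (-0.13, adjusted p = 0.0222) and without the 4 arrays that correlated least with their group (-0.16, adjusted p = 0.0321).

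Between treatments, the 2 knockdowns differed in more of these genes than either did from ETX, as counts without a test of that difference. In shCPT-2 against shCPT-1, 6 of 8 genes were called, where 35.5% of all genes were (17.7% higher, 17.8% lower), and the groups did not overlap for 6, against 48.6% of all genes: GADD45A (0.59 ± 0.05, limma adjusted p = 5.89e-06), SESN1 (0.25 ± 0.06, adjusted p = 0.00973) and FAS (0.24 ± 0.06, adjusted p = 0.00542) were higher in shCPT-2. CDKN1A (-0.38 ± 0.05, adjusted p = 1e-04), TP53INP1 (-0.57 ± 0.13, adjusted p = 0.00544) and ZMAT3 (-0.23 ± 0.06, adjusted p = 0.0153) were lower in shCPT-2. The last of these calls ended without shCPT-1 replicate 2 (-0.20, adjusted p = 0.0652) or shCPT-2 replicate 2 (-0.17, adjusted p = 0.0611), with the mean of the kept ZMAT3 probe sets (-0.12, adjusted p = 0.179) and without the 4 arrays that correlated least with their group (-0.16, adjusted p = 0.0902). TP53I3 passed without shCPT-1 replicate 1 (0.21, adjusted p = 0.0268), as it did with array weights (0.24, adjusted p = 0.000385) and without the 4 arrays (0.25, adjusted p = 0.00636), and MDM2 without shCPT-2 replicate 3 (0.19, adjusted p = 0.041).

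In shCPT-2 against ETX, 3 of 8 were called, with 45.8% of all genes called (1 higher and 2 lower, against 24.9% and 20.9%), and the groups did not overlap for 5, against 55.8% of all genes. CDKN1A was 1.36-fold lower in shCPT-2 (-0.45 ± 0.05, limma adjusted p = 1.43e-05) and TP53INP1 1.71-fold lower (-0.77 ± 0.13, adjusted p = 0.000454), whereas FAS was higher (0.17 ± 0.06, adjusted p = 0.027). The FAS call ended with the mean of both kept probe sets (0.12, adjusted p = 0.0872), without a filter (adjusted p = 0.0504), and without ETX replicate 1, ETX replicate 3, shCPT-2 replicate 1 or shCPT-2 replicate 3 (0.17, 0.15, 0.14 and 0.17, adjusted p = 0.0651, 0.0816, 0.0997 and 0.0675). GADD45A, the gene that rose in both, differed by -0.12 ± 0.05 (adjusted p = 0.0895, interval -0.24 to 0), which passed without scramble 3 (adjusted p = 0.0481), with quantile normalization again (adjusted p = 0.0473) and with the actin covariate (adjusted p = 0.0271). SESN1 (0.14 ± 0.06, adjusted p = 0.0997) passed without shCPT-1 replicate 1 (0.14, adjusted p = 0.0491).

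In shCPT-1 against ETX, both taken here to act on CPT1, 1 of 8 was called, with 42.7% of all genes called (0 higher and 1 lower, against 22.9% and 19.8%). The groups did not overlap for 3, against 54.3% of all genes. GADD45A was 1.63-fold lower in shCPT-1 (-0.71 ± 0.05, limma adjusted p = 6.21e-07). CDKN1A differed by -0.07 ± 0.05 (adjusted p = 0.295, interval -0.18 to 0.04) and ZMAT3 by 0.11 ± 0.06 (adjusted p = 0.189, interval -0.03 to 0.25). Without the 4 arrays that correlated least with their group, CDKN1A (-0.14, adjusted p = 0.0263) and TP53I3 (-0.17, adjusted p = 0.0251) passed as well. Both also passed with array weights (-0.10 and -0.15, adjusted p = 0.0231 and 0.0176), and TP53I3 without shCPT-1 replicate 1 (-0.18, adjusted p = 0.044). The order of the groups therefore differed by gene. For CDKN1A it ran ETX, shCPT-1, scramble, shCPT-2. The steps within the first pair and within the last pair did not pass the test, but both did with array weights. The shCPT-2 arrays all lay below those of scramble. For GADD45A it ran ETX, shCPT-2, shCPT-1, scramble, with the only called step between shCPT-2 and shCPT-1. Its other steps passed only in the settings named above.

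The rest of the p53 network was read from 9 lists that name 138 genes beside the 8, of which 119 were tested. Some genes are on several lists. The counts below are read beside the shares of all tested genes called higher and lower: 21.9% and 19.4% with ETX, 23.1% and 18% in shCPT-1, and 25.6% and 20.5% in shCPT-2. Regulators of p53 had 3 of 22 higher and 6 lower with ETX, 4 and 8 in shCPT-1 and 6 and 5 in shCPT-2, at median log2 changes of -0.03, -0.09 and 0.02. PPM1D, the WIP1 phosphatase that shuts p53 signalling off and is itself a p53 target, rose by 0.49 ± 0.11 with ETX (limma adjusted p = 0.00419) and 0.40 ± 0.11 in shCPT-2 (adjusted p = 0.0103). USP7, the deubiquitinase that stabilises MDM2 and p53, fell by 0.27 ± 0.05 with ETX (adjusted p = 0.00194) and TP53BP1, a DNA break protein, rose by 0.33 ± 0.08 (adjusted p = 0.00679). CDKN2A also fell with ETX (-0.43 ± 0.11, adjusted p = 0.00687) and in shCPT-2 (-0.30 ± 0.11, adjusted p = 0.0357), at ETX levels of 6.05 ± 0.24 against 6.48 ± 0.04 in scramble (SD), close to the array medians.

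In the knockdowns the damage kinases ATR and ATM changed in opposite directions. ATR, which answers replication stress, rose by 0.53 ± 0.04 in shCPT-1 (limma adjusted p = 1.82e-06) and 0.64 ± 0.04 in shCPT-2 (adjusted p = 2.64e-07). ATM, which answers DNA breaks, fell by 0.70 ± 0.06 (adjusted p = 2.48e-06) and 0.74 ± 0.06 (adjusted p = 1.11e-06) in the same 2 lines, and by 0.18 ± 0.06 with ETX (adjusted p = 0.0304). CHEK1, the kinase downstream of ATR, fell by 0.46 ± 0.06 in shCPT-1 and 0.48 ± 0.06 in shCPT-2 (adjusted p = 9.39e-05 and 5.6e-05), and CHEK2 stood at 0.14 ± 0.08 and -0.03 ± 0.08 there and did not pass. HIPK2, a kinase that phosphorylates p53 for apoptosis, fell by 0.55 ± 0.05 in shCPT-1 (adjusted p = 6.66e-06) and 0.45 ± 0.05 in shCPT-2 (adjusted p = 2.74e-05). KAT5, the TIP60 acetyltransferase, fell by 0.43 ± 0.05 in shCPT-1 (adjusted p = 4.88e-05), 0.20 ± 0.05 with ETX (adjusted p = 0.01) and 0.23 ± 0.05 in shCPT-2 (adjusted p = 0.00346). TP53BP2, the ASPP2 cofactor, rose by 0.51 ± 0.06 in shCPT-2 (adjusted p = 1.42e-05), 0.23 ± 0.06 with ETX (adjusted p = 0.00708) and 0.20 ± 0.06 in shCPT-1 (adjusted p = 0.012).

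Among 18 tested further growth-arrest targets, 6 were higher and 3 lower with ETX, 3 and 2 in shCPT-1, and 9 and 5 in shCPT-2 (median log2 changes 0.03, 0.02 and 0.14). KLF4, a transcription factor that can induce CDKN1A, rose by 1.48 ± 0.12 with ETX (limma adjusted p = 4.11e-06), 0.93 ± 0.12 in shCPT-1 (adjusted p = 5.89e-05) and 0.81 ± 0.12 in shCPT-2 (adjusted p = 0.000134). GDF15, a secreted stress cytokine, rose by 0.86 ± 0.08 with ETX, 1.15 ± 0.08 in shCPT-1 and 0.66 ± 0.08 in shCPT-2 (adjusted p = 1.89e-05, 6.04e-07 and 4.15e-05), where its scramble level of 5.76 ± 0.09 (SD) lies under the array medians. The kinase PLK2 rose by 0.33 ± 0.05 in shCPT-2 (adjusted p = 0.000116) but fell by 0.16 ± 0.05 with ETX (adjusted p = 0.017) and 0.18 ± 0.05 in shCPT-1 (adjusted p = 0.00895). In shCPT-2, NINJ1, a membrane protein of cell lysis, fell by 0.53 ± 0.06 (adjusted p = 7.7e-06). TP53I13 fell by 0.26 ± 0.06 with ETX and 0.18 ± 0.06 in shCPT-2 (adjusted p = 0.00385 and 0.0268), and the hydrolase CMBL by 0.31 ± 0.06 in shCPT-1 and 0.23 ± 0.06 in shCPT-2 (adjusted p = 0.00238 and 0.0114).

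Apoptosis targets of p53 had 2 of 18 higher and 6 lower with ETX, 5 and 3 in shCPT-1, and 4 and 6 in shCPT-2 (medians -0.04, 0.02 and -0.06). PMAIP1, the NOXA death protein, rose by 0.40 ± 0.08 with ETX, 0.31 ± 0.08 in shCPT-1 and 0.25 ± 0.08 in shCPT-2 (limma adjusted p = 0.00256, 0.00915 and 0.0238). TNFRSF10A, a TRAIL receptor, rose by 0.29 ± 0.06 with ETX, 0.29 ± 0.06 in shCPT-1 and 0.30 ± 0.06 in shCPT-2 (adjusted p = 0.00335, 0.00246 and 0.00177). BAX, the pore-forming death protein, rose by 0.35 ± 0.07 in shCPT-1 (adjusted p = 0.00105) and stood at 0.12 ± 0.07 with ETX (adjusted p = 0.182) and 0.16 ± 0.07 in shCPT-2 (adjusted p = 0.0695). STEAP3, an endosomal iron reductase, fell by 0.38 ± 0.05 with ETX (adjusted p = 0.000145) and by 0.58 ± 0.05 in each knockdown (adjusted p = 2.48e-06 in shCPT-1 and 1.69e-06 in shCPT-2). TRAF4, an adaptor, fell by 0.23 ± 0.05 with ETX (adjusted p = 0.00445) and rose by 0.21 ± 0.05 in shCPT-2 (adjusted p = 0.00496). AIFM2, the FSP1 oxidoreductase, fell by 0.37 ± 0.05 in shCPT-1 (adjusted p = 7.83e-05) and 0.34 ± 0.05 in shCPT-2 (adjusted p = 0.000133), and IGFBP3 fell by 0.40 ± 0.07 and 0.42 ± 0.07 there (adjusted p = 0.000582 and 0.000287) and by 0.27 ± 0.07 with ETX (adjusted p = 0.00829).

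The 8 tested DNA repair and nucleotide supply targets had 2 higher and 2 lower with ETX, 0 and 2 in shCPT-1, and 3 and 2 in shCPT-2 (medians 0.01, 0.03 and 0.10). With ETX, RRM2B, the p53-inducible ribonucleotide reductase subunit, rose by 0.27 ± 0.06 (limma adjusted p = 0.00624) and the polymerase subunit REV3L by 0.31 ± 0.06 (adjusted p = 0.00228), while FANCC and POLH each fell by 0.22 (adjusted p = 0.00562 and 0.0157). The DNA damage sensors of nucleotide excision repair fell in both knockdowns: XPC by 0.36 ± 0.05 and DDB2 by 0.24 ± 0.06 in shCPT-1 (adjusted p = 0.000108 and 0.00432), and XPC by 0.28 ± 0.05 and DDB2 by 0.44 ± 0.06 in shCPT-2 (adjusted p = 0.000623 and 5.06e-05). RRM2B also rose in shCPT-2 (0.18 ± 0.06, adjusted p = 0.0413). The translesion polymerases POLH and POLK rose in shCPT-2 by 0.25 ± 0.06 and 0.14 ± 0.05 (adjusted p = 0.00685 and 0.0241).

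Relatives of the 9 genes, those of BTG2 included, were read as a list of their own. Of these, 6 of 15 were higher and 1 lower with ETX, 4 and 3 in shCPT-1, and 3 and 5 in shCPT-2 (medians 0.19, 0.07 and -0.03). Beside the sestrins and kinase inhibitors above, ZMAT1 rose by 0.48 ± 0.11 with ETX (limma adjusted p = 0.00381) and fell by 0.46 ± 0.11 in shCPT-1 (adjusted p = 0.00372) and 0.34 ± 0.11 in shCPT-2 (adjusted p = 0.0174). Of the antiproliferative family of BTG2, BTG3 and TOB2 rose in shCPT-2 by 0.25 ± 0.06 and 0.17 ± 0.04 (adjusted p = 0.00366 and 0.00523), while BTG1 and TOB1 fell there by 0.15 ± 0.04 and 0.12 ± 0.04 (adjusted p = 0.0141 and 0.0434). In shCPT-1, BTG1 and TOB2 each rose by 0.17 ± 0.04 (adjusted p = 0.00706 and 0.00715) and TOB1 fell by 0.15 ± 0.04 (adjusted p = 0.0168), and with ETX only BTG3 of these 4 was called, as higher (0.21 ± 0.06, adjusted p = 0.0141).

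**Figure D4:**
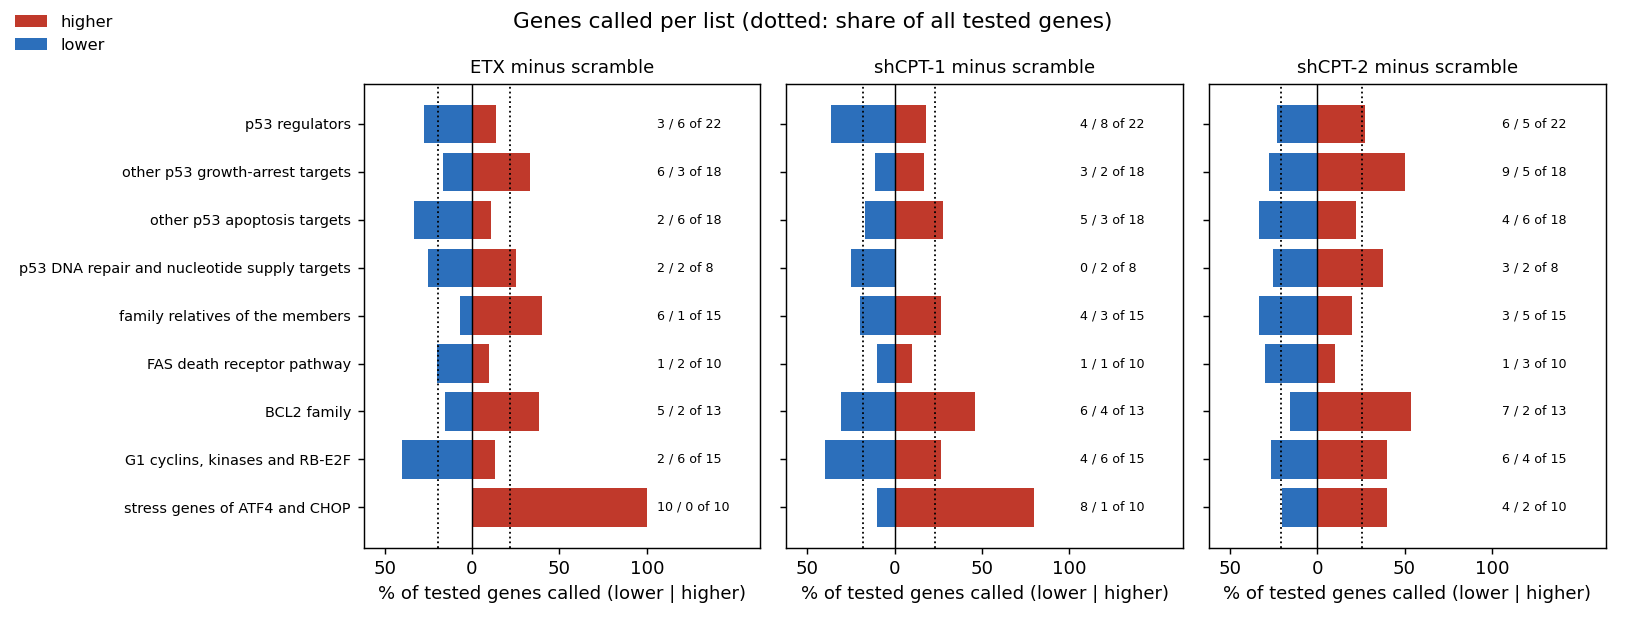
Share of the tested genes of each list called higher (right of 0) and lower (left of 0) against scramble, with the counts higher / lower of tested genes beside each bar; dotted lines give the shares over all 12886 tested genes. The stress genes of ATF4 and CHOP with ETX stand farthest to the right, at 10 of 10 higher.

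Of the BCL2 family, which sets the threshold of mitochondrial apoptosis, 5 of 13 were higher and 2 lower with ETX, 6 and 4 in shCPT-1, and 7 and 2 in shCPT-2 (medians 0.04, 0.18 and 0.25). BCL2L2, a survival protein, rose by 0.37 ± 0.05 both with ETX (limma adjusted p = 0.00011) and in shCPT-1 (adjusted p = 4.57e-05), and by 0.28 ± 0.05 in shCPT-2 (adjusted p = 0.000338). BCL2A1, another, rose by 0.37 ± 0.09 with ETX and 0.40 ± 0.09 in shCPT-2 (adjusted p = 0.00512 and 0.00238) and fell by 0.39 ± 0.09 in shCPT-1 (adjusted p = 0.0032). BCL2 fell by 0.18 ± 0.05 with ETX (adjusted p = 0.00807) and 0.29 ± 0.05 in shCPT-1 (adjusted p = 0.000302) but rose by 0.36 ± 0.05 in shCPT-2 (adjusted p = 3.82e-05). BAK1, a pore former, rose by 0.38 ± 0.06 in shCPT-1, 0.37 ± 0.06 in shCPT-2 and 0.17 ± 0.06 with ETX (adjusted p = 0.000165, 0.000158 and 0.0268). BAD, a sensitiser, fell by 0.35 ± 0.05 and 0.70 ± 0.05 in shCPT-1 and shCPT-2 (adjusted p = 0.000133 and 3.18e-07) and by 0.15 ± 0.05 with ETX (adjusted p = 0.0301), and BMF, another, fell by 0.44 ± 0.06 in shCPT-2 and 0.19 ± 0.06 in shCPT-1 (adjusted p = 5.26e-05 and 0.0171). The death protein BCL2L11 (BIM) rose by 0.53 ± 0.15 with ETX and 0.71 ± 0.15 in shCPT-2 (limma adjusted p = 0.0163 and 0.00231). In shCPT-1 it stood at 0.18 ± 0.15 (limma adjusted p = 0.389).

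Among the G1 cyclins, kinases and RB-E2F genes, on which p21 acts, 2 of 15 were higher and 6 lower with ETX, 4 and 6 in shCPT-1, and 6 and 4 in shCPT-2 (medians -0.09, -0.08 and 0.04). Cyclin D2 (CCND2) rose by 0.92 ± 0.05 with ETX (limma adjusted p = 9.35e-08) and 0.58 ± 0.05 in shCPT-1 (adjusted p = 1.13e-06), and fell by 0.63 ± 0.05 in shCPT-2 (adjusted p = 3.65e-07), while CDKN1A stood at -0.08 there. Cyclin D1 (CCND1) fell by 0.37 ± 0.05 in shCPT-1 (adjusted p = 9.93e-05) and 0.61 ± 0.05 in shCPT-2 (adjusted p = 1.27e-06), and by 0.26 ± 0.05 with ETX (adjusted p = 0.00188). Cyclin E2 (CCNE2) fell by 0.39 ± 0.05 with ETX and 0.57 ± 0.05 in shCPT-1 (adjusted p = 0.000119 and 2.65e-06) and rose by 0.17 ± 0.05 in shCPT-2 (adjusted p = 0.0117). Cyclin E1 (CCNE1) fell by 0.21 ± 0.05 with ETX and 0.27 ± 0.05 in shCPT-1 (adjusted p = 0.00706 and 0.00159) and rose by 0.32 ± 0.05 in shCPT-2 (adjusted p = 0.000364). The S-phase factor E2F2 fell by 0.53 ± 0.07 with ETX, 0.45 ± 0.07 in shCPT-1 and 0.20 ± 0.07 in shCPT-2 (adjusted p = 0.000108, 0.000203 and 0.0264). CDK4 fell by 0.27 ± 0.04 with ETX and 0.12 ± 0.04 in shCPT-2 (adjusted p = 0.000525 and 0.0372). The RB relative RBL2 rose by 0.42 ± 0.05 in shCPT-2 and 0.25 ± 0.05 in shCPT-1 (adjusted p = 4.94e-05 and 0.0026), and cyclin D3 (CCND3) by 0.31 ± 0.04 and 0.14 ± 0.04 in the same lines (adjusted p = 6.35e-05 and 0.0148).

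The stress genes of ATF4 and CHOP, the transcription factors of the integrated stress response, were higher in 10 of 10 cases with ETX, at a median log2 change of 0.79, in 8 of 10 with 1 lower in shCPT-1 (median 0.62), and in 4 of 10 with 2 lower in shCPT-2 (median 0.17). ATF4 itself changed by 0.58 ± 0.06, 0.13 ± 0.06 and -0.16 ± 0.06 in ETX, shCPT-1 and shCPT-2 (limma adjusted p = 2.35e-05, 0.102 and 0.0368). DDIT3, which encodes CHOP, changed by 0.67 ± 0.06, 0.34 ± 0.06 and 0.15 ± 0.06 in the same order (limma adjusted p = 1.18e-05, 0.000823 and 0.0581). ATF3, a stress transcription factor, rose by 1.05 ± 0.06 with ETX, 0.62 ± 0.06 in shCPT-1 and 0.43 ± 0.06 in shCPT-2 (limma adjusted p = 1.98e-07, 4.02e-06 and 6.11e-05). TRIB3, a pseudokinase that CHOP induces, rose by 0.71 ± 0.05 with ETX and 0.61 ± 0.05 in shCPT-1 (adjusted p = 2.91e-06 and 3.01e-06) and stood at -0.04 ± 0.05 in shCPT-2 (adjusted p = 0.593). DDIT4, an mTORC1 inhibitor that p53 and hypoxia also induce, rose by 0.74 ± 0.08 with ETX and 1.15 ± 0.08 in shCPT-1 (adjusted p = 5.2e-05 and 6.73e-07) and fell by 1.76 ± 0.08 in shCPT-2 (adjusted p = 1.14e-08). PPP1R15A (GADD34) rose by 0.34 ± 0.06 with ETX and 0.49 ± 0.06 in shCPT-2 (adjusted p = 0.00121 and 4.5e-05) and fell by 0.24 ± 0.06 in shCPT-1 (adjusted p = 0.0083). Asparagine synthetase (ASNS) rose by 1.68 ± 0.05 with ETX, 0.84 ± 0.05 in shCPT-1 and 0.61 ± 0.05 in shCPT-2 (adjusted p = 8.92e-10, 7.59e-08 and 7.06e-07), and CHAC1, which degrades glutathione, by 1.70 ± 0.08 with ETX and 0.71 ± 0.08 in shCPT-1 (adjusted p = 5.46e-08 and 1.66e-05).

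The tested genes outside the 8 that were most like each of the 8 over the 12 arrays were found by Pearson correlation of log2 intensity, as a description in which the arrays share their groups. TRIB3 was the most like CDKN1A (r = 0.974), followed by HLA-J (0.966) and PGCKA1 (0.961), and TRIB3 changed by 0.71 with ETX, 0.61 in shCPT-1 and -0.04 in shCPT-2. GADD45A was most like ZNF804A (0.982), NABP1 (0.978) and IL7R (0.976), the last of which changed by 1.03 with ETX, 0.22 in shCPT-1 and 0.96 in shCPT-2. TP53INP1 was most like RORA (0.964), SLC2A3 (0.957) and C1orf56 (0.951). FAS was most like CACNA2D1 (0.968), TMEM231 (0.964) and DAW1 (0.963), and ZMAT3 most like TPP1 (0.952), FAM210B (0.949) and TSNAX (0.949). For SESN1 the nearest were ZNF324 (0.932), AP3S1 (0.92) and ANKRD16 (0.908), for TP53I3 PHB1 (0.926), LINC02708 (0.868) and SLX9 (0.862), and for MDM2 PPP4R2 (0.886), ADH4 (0.864) and SIRT1 (0.857).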

How the data were processed

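The authors deposited linear-scale intensity values for each probe set, made with RMA per the submitters' processing notes; the software, its version and its settings are unstated. All 12 columns were mapped to labelled arrays, 3 per group, and log2 intensity was analysed. Probe sets were named from GEO's platform annotation, with symbols updated through Entrez IDs: 41091 had 1 symbol, 1801 several and 11721 none, and 62 were controls. Those above the median of their array on 3 or more arrays stayed in (28628 of 54675), and the brightest of them stood for its gene, giving 12886 genes. The number of arrays limits the precision.

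limma 3.58.1 (lmFit, eBayes) fitted all 12 arrays without covariates, with 8 residual degrees of freedom and 4.117 from the prior, in R 4.3.3; tests were two-sided, with Benjamini-Hochberg adjustment over all tested genes. Figures used Python 3.11.15 and matplotlib 3.10.9. Since exact permutation of 3 against 3 arrays gives at best p = 0.1, it was left out. The members, lists and alternatives were chosen with earlier results of these data known. Named list genes are up to 4 called genes of smallest p per list and comparison. Their values in the other comparisons were chosen after they were seen. So were CDKN1B, GADD45B, MDM4, CASP8, CHEK1, CHEK2, BTG1, TOB1, CCNE1, BCL2L11, ATF4 and DDIT3. The steps were tested on simulated data. There were 13 alternatives and 12 fits that each left out 1 array.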

Additional observations from a re-analysis of the deposited data

How the results depend on the processing

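Under the 13 alternatives, the counts of called genes over the 8 genes and, both directions together, over all genes stayed within 1.5 times of those reported, with the exceptions that follow. In shCPT-1 against scramble 3 of the 8 genes were called, 1 without _x_at, _s_at and _a_at probe sets and 6 with array weights. In shCPT-1 against ETX it was 1, but 3 with array weights and 3 without the 4 arrays that correlated least with their group. Without _x_at, _s_at and _a_at probe sets it was also 1 in shCPT-2 against ETX in place of 3, 3 in shCPT-2 against shCPT-1 in place of 6, and 3 by the F test in place of 6; that setting leaves no probe set for CDKN1A, SESN1, TP53I3 or FAS. With array weights, 7469 of all genes differed between the knockdowns in place of 4575, and TP53I3 in shCPT-2 against scramble stood at 0.12 in place of 0.00, just below 0 (adjusted p = 0.0344); the cause was not tested. By direction, genes called lower with ETX numbered 2498, but 1658 without _x_at, _s_at and _a_at probe sets, 3993 with array weights and 1665 with the actin covariate; array weights also gave 3554 lower in shCPT-1 in place of 2323, 4093 lower in shCPT-2 in place of 2642, and 3738 higher and 3731 lower between the knockdowns in place of 2287 and 2288. The fits without 1 array each gave 3 to 4 of the 8 genes for ETX, 2 to 4 for shCPT-1 and 3 to 4 for shCPT-2 against scramble, 1 to 2 for shCPT-1 and 2 to 4 for shCPT-2 against ETX, 5 to 7 between the knockdowns and 6 throughout by the F test, and over all genes 4021 to 5575, 4372 to 5570, 4960 to 6081, 4608 to 5874, 5139 to 6222 and 3692 to 4927 in the same 6 comparisons. The labels share replicate numbers. Same-numbered arrays correlated between -0.46 and 0.33 in their deviations from the group means, with 8 of 18 pairs over 0.1. Differently numbered arrays correlated between -0.45 and 0.61, with 13 of 36 pairs over 0.1. Of 12 arrays, 3 correlated best with an array of their own number. Whether same-numbered arrays share a culture or a day was not tested. With the replicate number as a block, no call of the 8 genes changed (3 for ETX, 3 for shCPT-1 and 4 for shCPT-2 against scramble, 6 by the F test), and over all genes 5075 were called for ETX, 5063 for shCPT-1, 5748 for shCPT-2. The calls of CDKN1A (ETX, shCPT-1), GADD45A (ETX, shCPT-2), ZMAT3 (ETX, shCPT-1) and FAS (shCPT-2) held under every alternative that left a probe set for the gene. List counts moved more: the death receptor pathway had 3 called genes with ETX, 0 without _x_at, _s_at and _a_at probe sets and 5 with quantile normalization again. Genes near the array medians, as TP53INP1 and the dim probe sets of FAS and MDM2, are limited by signal over background.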
